A study of Mus musculus with 2 samples.

Results

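The proteasome is the cell's main protease for ubiquitin-tagged proteins, and its genes were described here in the RNA of the nucleoplasm of mouse macrophages. A gene was taken as a member where its name begins with Psm, a letter from a to g and a number, and where at least 1 of its annotated transcripts is protein-coding. Of 55536 annotated genes, 54 had such a name, 4 of these were pseudogenes without a protein-coding transcript, and 50 remained. Within these 50, the 5 interferon-inducible genes Psmb8, Psmb9, Psmb10, Psme1 and Psme2 were compared with the other 45.

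The cells were macrophages grown from the bone marrow of C57BL/6J mice, all treated alike. They received lipid A, the membrane anchor of bacterial lipopolysaccharide and ligand of the receptor TLR4, at 100 ng/ml for 12 h. They were then kept for 12 h after its removal and given 100 ng/ml again for 25 min. After ribosomal RNA was removed, total RNA of the fraction was sequenced as 2 libraries, replicates 1 and 2, which form 1 group. The labels call the fraction nucleoplasmic in 1 place and nuclear in another, and sex and age were not collected. The donor entry is the same for both, while their biosample entries and biological replicate numbers differ. Whether the cultures were separate could not be worked out, so any spread given below may be technical. The starting amount of RNA was 500 ng for replicate 1 and 1 µg for replicate 2, so replicate and starting amount cannot be told apart. Samples without lipid A, with a single dose or of the cytoplasm were not analysed here, so no value below is a response to lipid A, and no test between conditions was possible. In such bulk samples fewer cells and less RNA per cell cannot be told apart.

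As background, the 20S core of the proteasome is a stack of rings of alpha and beta subunits, with the protease sites inside, on some of the beta subunits. The 19S cap recognises ubiquitin chains, unfolds the substrate with a ring of ATPases and feeds it into the core. Interferons induce alternative catalytic subunits that replace the constitutive ones and form the immunoproteasome, together with the ring-shaped 11S activator, and many of the resulting peptides are loaded on MHC class I molecules. Macrophages are among the cells in which this switch has been studied.

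The libraries held 20196408 and 19588980 expected counts, that is, counts in which reads shared between transcripts are split by a model. A gene is called detected below where its expected count was 10 or more in each library, which 14596 genes met, 11383 of them protein-coding. All 8 macrophage markers had at least 1 TPM (a level divided by transcript length and scaled to a fixed total per library) in both libraries and summed to 3450 and 2902 TPM. The 4 neutrophil markers had no count, no T cell or dendritic cell marker reached 1 TPM in both libraries, and of the 4 markers each of B cells and of fibroblasts and endothelium 1 did so. Cd3e and Cd3g were the T cell markers at 0. Mitochondrial genes took 5.88% of counts in replicate 1 and 3.50% in replicate 2, and phiX174, a sequencing control, took 0.281% and 0.0639%. Whether these differences had a part in the ratios between replicates given below was not tested. After normalisation edgeR gave a common biological coefficient of variation of 0.246 between the libraries.

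Of the 50 members, 47 were detected, the 5 inducible genes and 42 others. Psmb11, the catalytic subunit of the thymus, had 0 counts in both libraries, where a count of 0 allows up to 1.49e-05% of replicate 1 and 1.53e-05% of replicate 2 for counting error only. Psmg4, a chaperone of core assembly, had 7 and 24 counts. Psmc3ip, a meiotic recombination factor that shares only the name, had 9 and 11.4 counts. The detected members together held 30202 counts in replicate 1 and 33422 in replicate 2. All members took 0.150% (95% Wilson interval 0.148 to 0.151%) of all counts in replicate 1 and 0.171% (0.169 to 0.173%) in replicate 2. The level was at least 10 TPM in both libraries for 36 of the 47 detected members, against 41.5% of all detected protein-coding genes. All 5 inducible genes and 28 of 31 other core and cap genes were among them.

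Psmb8, the inducible subunit that takes the place of Psmb5 in the core, lies in the MHC region on the plus strand (chr17:34197721-34201454, GRCm38). Its promoter is shown because Psmb8 is 1 of the 5 inducible genes and holds a match to an interferon motif. The window runs from 250 bases before the RefSeq start to 50 after it (chr17:34197945-34198244, GRCm38.p6, plus strand), and capitals mark a match to the gamma-activated site TTCNNNGAA, a motif known from interferon-gamma responsive promoters. The match begins 97 bases before the start.
Psmb8 promoter: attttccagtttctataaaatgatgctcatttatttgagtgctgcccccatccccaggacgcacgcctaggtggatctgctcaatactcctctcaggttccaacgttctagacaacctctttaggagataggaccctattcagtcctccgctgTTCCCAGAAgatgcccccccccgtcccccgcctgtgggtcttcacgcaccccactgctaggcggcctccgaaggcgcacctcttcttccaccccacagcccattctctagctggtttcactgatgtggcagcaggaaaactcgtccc

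Psmb9, which takes the place of Psmb6, lies 9956 bases from Psmb8 on the minus strand (chr17:34181987-34187764, GRCm38). Tap1, a subunit of the peptide transporter of antigen presentation, lies between them on the plus strand and its annotated span overlaps that of Psmb9 by 212 bases. The promoter of Psmb9 is shown because the annotated start of Tap1 falls inside it (chr17:34187281-34187580, GRCm38.p6, minus strand). None of the motifs searched was found in these letters, so nothing is in capitals.
Psmb9 promoter: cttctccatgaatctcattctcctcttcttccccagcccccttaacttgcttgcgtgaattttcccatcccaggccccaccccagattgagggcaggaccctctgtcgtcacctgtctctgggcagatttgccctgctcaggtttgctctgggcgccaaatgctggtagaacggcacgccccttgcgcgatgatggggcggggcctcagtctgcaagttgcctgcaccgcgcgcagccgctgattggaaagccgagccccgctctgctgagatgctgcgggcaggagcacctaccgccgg

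Psme1 and Psme2, the alpha and beta chains of the 11S activator, lie 5911 bases apart on chromosome 14 (chr14:55578123-55581529, plus strand, and chr14:55587441-55591113, minus strand, GRCm38). In the window of Psme1 (chr14:55578244-55578543, GRCm38.p6, plus strand) capitals mark a match to GAAANNGAAA, the core of the interferon-stimulated response element that IRF proteins bind, here on the opposite strand. It begins 9 bases after the start.
Psme1 promoter: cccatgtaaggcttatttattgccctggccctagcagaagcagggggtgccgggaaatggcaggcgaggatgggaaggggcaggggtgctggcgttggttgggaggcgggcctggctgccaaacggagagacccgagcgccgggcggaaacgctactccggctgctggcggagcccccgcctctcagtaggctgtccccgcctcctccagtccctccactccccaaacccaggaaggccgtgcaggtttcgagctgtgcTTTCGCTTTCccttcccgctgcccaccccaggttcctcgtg

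The promoter windows came from RefSeq (GRCm38.p6), which held a window for 42 of the 50 members. The motifs were searched on both strands without allowing a mismatch. GAAANNGAAA was found for Psme1 alone among the 5 inducible genes and for Psmb3, Psmd4, Psmd9 and Psmg4 among the 37 others, against 3.99% of all 27025 genes with a window. TTCNNNGAA was found for Psmb8 alone among the 5 and for Psmd2 and Psmg1 among the 37, against 9.55% of all genes. TGACNNNGC, the core of the antioxidant response element that NRF1 and NRF2 bind, was found in none of the 5 and in 6 of the 37 (Psmb5, Psmb6, Psmc6, Psmd12, Psmd9 and Psme4), against 14.0% of all genes. A match describes the letters of a window and not a bound site.

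The alpha ring, whose 7 subunits Psma1 to Psma7 form the gate of the core, lay at a median of 21.4 TPM (replicate 1) and 22.3 TPM (replicate 2). Psma3 was the highest of them with 66.5 and 43.8 TPM. Psma2 was the lowest with 8.70 and 7.07 TPM, below the median of detected protein-coding genes, which was 9.35 and 7.82 TPM. Psma8, the alpha subunit that replaces Psma7 in male germ cells, had 28 and 19 counts and 1.42 and 0.76 TPM. It was the lowest detected member in both libraries.

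The 4 beta subunits without a catalytic site, Psmb1 to Psmb4, had a median of 14.8 and 17.7 TPM. Their levels were close together: Psmb1, the lowest, had 13.8 and 13.0 TPM, and Psmb2, the highest, had 21.3 and 23.1 TPM. The constitutive catalytic subunits were less even. Psmb6, the caspase-like subunit, had 60.2 and 73.4 TPM. Psmb7, the trypsin-like subunit, had 14.8 and 18.99 TPM. Psmb5, the chymotrypsin-like subunit, had 15.7 and 12.2 TPM, so Psmb6 was well above both others in both libraries.

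The 6 ATPases of the 19S cap, Psmc1 to Psmc6, had a median of 21.9 and 20.3 TPM. Psmc6 was highest with 36.3 and 30.6 TPM and Psmc2 lowest with 9.96 and 9.70 TPM. The 11 other cap genes had a median of 27.2 and 24.6 TPM. Psmd8, a scaffold subunit of the lid, had 52.7 and 65.9 TPM, and Psmd2, a large subunit of the base that binds shuttle factors, had 57.8 and 53.7 TPM. Psmd12, another lid subunit, was lowest with 11.6 and 9.69 TPM. The median of log2(TPM + 1) over the 14 alpha and beta genes without the inducible ones lay 0.36 ± 0.13 (SD, n = 2) below that over the 17 cap genes.

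The medians of the factors that help to assemble the complex were lower than those of the ring and cap groups above. The chaperones of the 19S base Psmd5, Psmd9 and Psmd10 had a median of 5.52 and 5.65 TPM, with Psmd5 at 5.05 and 4.30 TPM and Psmd10 at 9.60 and 6.55 TPM. The core chaperones Psmg1, Psmg2 and Psmg3 had a median of 4.08 and 3.28 TPM, with Psmg1 at 3.86 and 2.03 TPM and Psmg3 at 4.30 and 4.41 TPM. Psmf1, known as PI31, a protein that binds the core, had 4.86 and 4.26 TPM. Among the activators, Psme4, the nuclear activator PA200, had 52.4 and 46.4 TPM. Psme3, which forms the nuclear 11S activator, had 24.3 and 13.8 TPM. Psme4 also had the most counts of any member, 3910 and 3825.

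**Figure D1:**
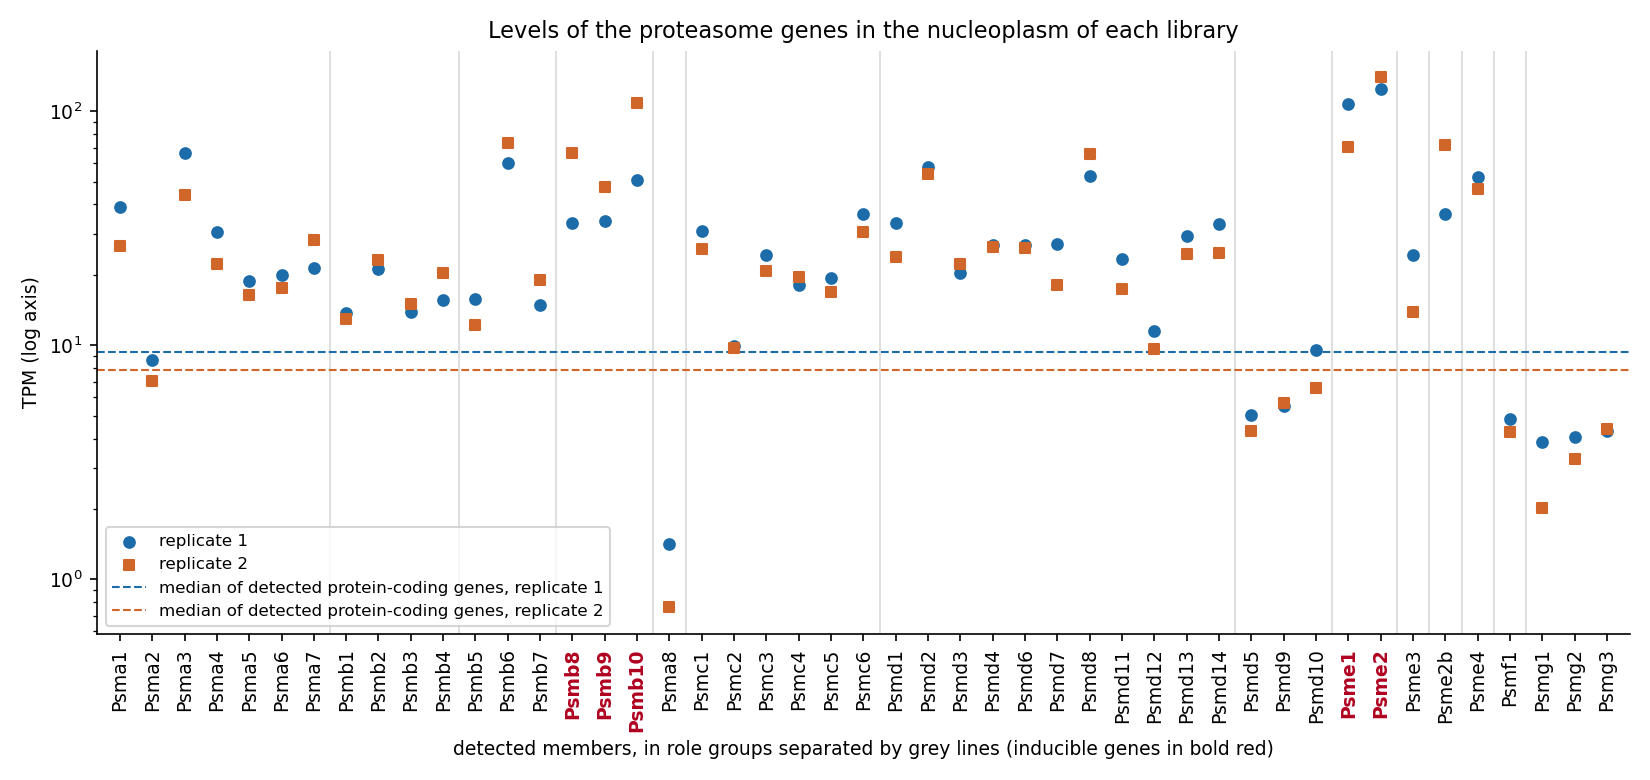
TPM on a log axis of each of the 47 detected members in replicate 1 (blue circles) and replicate 2 (orange squares), in groups by role, with the inducible genes in bold red and dashed lines at the median of detected protein-coding genes in each library. The 5 inducible genes lie between 33.2 and 140 TPM, and the assembly factors Psmd5, Psmd9, Psmg1, Psmg2 and Psmg3 lie below both dashed lines.

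By TPM over all transcripts, the 5 inducible genes were among the higher members. Psmb8 had 652 counts and 33.2 TPM in replicate 1, and 1514 counts and 66.3 TPM in replicate 2. Psmb9 had 862 counts and 34.1 TPM, then 1386 counts and 47.3 TPM. Psmb10, the inducible replacement of Psmb7 on chromosome 8 (chr8:105935735-105938444, GRCm38, minus strand), had 433 counts and 51.1 TPM, then 1129 counts and 108 TPM. All 3 had more counts and a higher TPM in replicate 2. Psme1 had 962 counts and 107 TPM in replicate 1, and 1253 counts and 70.1 TPM in replicate 2. Psme2 had 930 counts and 125 TPM, then 1653 counts and 140 TPM. Psme1 was therefore higher in replicate 2 by counts and lower by TPM. Over protein-coding transcripts alone, the median of the 42 other detected members was 16.5 TPM (replicate 1) and 12.9 TPM (replicate 2). Psmb8, with 9.51 and 12.4 TPM, was below it in both libraries, and Psmb10, with 8.49 TPM, in replicate 1. Psmb9, Psme1 and Psme2 were above it in both.

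By mean TPM the order was Psme2 (132 ± 10.5), Psme1 (88.5 ± 26.1), Psmb10 (79.7 ± 40.4), Psmb8 (49.8 ± 23.4) and Psmb9 (40.7 ± 9.38; SD, n = 2 for each). Psme2 was first in both libraries, while Psme1 changed places with Psmb10, and Psmb8 with Psmb9, between them, so these neighbours did not differ beyond their spread. Among detected protein-coding genes, Psme2 lay at percentile 96.7 in replicate 1 and 97.5 in replicate 2. Psmb9 lay at 82.9 and 90.3.

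The median of the 5 was 51.1 TPM (replicate 1) and 70.1 TPM (replicate 2). The median of the 42 other detected members was 20.8 and 19.3 TPM. On the log2(TPM + 1) scale, which understates differences of low genes, the medians differed by 1.26 in replicate 1 and 1.81 in replicate 2, a mean of 1.53 ± 0.39 (SD, n = 2). The sets overlapped: 9 of the 42 others exceeded the lowest inducible gene in replicate 1 and 4 did so in replicate 2. The 5 genes held 26.04% and 31.4% of the summed TPM of all members. Their share of the members' counts was smaller, 12.7% (95% Wilson interval 12.3 to 13.1%) and 20.7% (20.3 to 21.2%). Counted over protein-coding transcripts alone, the difference of the medians was 0.44.

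Psmb8, Psmb9 and Psmb10 were then set against the constitutive genes whose place their products take. Psme1 and Psme2 were set against Psme3, a gene of the same family whose place they do not take. Psmb8 exceeded Psmb5 by 1.03 in replicate 1 and 2.35 in replicate 2 on the log2(TPM + 1) scale, a mean of 1.69 ± 0.93 (SD, n = 2). Psmb10 exceeded Psmb7 by 1.72 and 2.45, a mean of 2.09 ± 0.52. Psmb9 differed in direction from these: it was lower than Psmb6 in both libraries, by -0.81 and -0.62, a mean of -0.71 ± 0.13. This direction turned to 0.48 by CPM (counts scaled to library size and not divided by length), where Psmb9 had more counts than Psmb6 in both libraries. Psme1 exceeded Psme3 by 2.09 and 2.26, and Psme2 exceeded it by 2.31 and 3.25. By CPM, Psmb10, Psme1 and Psme2 exceeded their counterparts in replicate 2 only. In replicate 1 Psmb10 had 20.8 CPM against 24.1 for Psmb7. Psme1 and Psme2 had 46.1 and 44.6 CPM there, against 53.5 for Psme3. In each library the authors' interval of TPM for an inducible gene did not overlap that of its counterpart.

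The sign of the Psmb8 comparison changed when protein-coding transcripts alone were counted. These had 9.51 and 12.4 TPM for Psmb8 and 15.7 and 12.2 TPM for Psmb5, a difference of -0.67 and 0.03 with a mean of -0.32 ± 0.49 (SD, n = 2). For Psmb10 over Psmb7 the mean difference became 0.30 ± 0.33, for Psme1 over Psme3 0.88 ± 0.93 and for Psme2 over Psme3 1.59 ± 1.36. The protein-coding Psme2-201 had 0 counts in replicate 1 and 557 in replicate 2. In the kallisto-layout table protein-coding transcripts held 7.65% and 12.6% of the TPM of Psme2. On this TPM scale Psmb9 was again below Psmb6, with -0.70 ± 0.22. Psmb5 had no retained-intron transcript in the annotation and all of its TPM in protein-coding transcripts, whereas Psmb8 had 4 retained-intron transcripts.

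**Figure D2:**
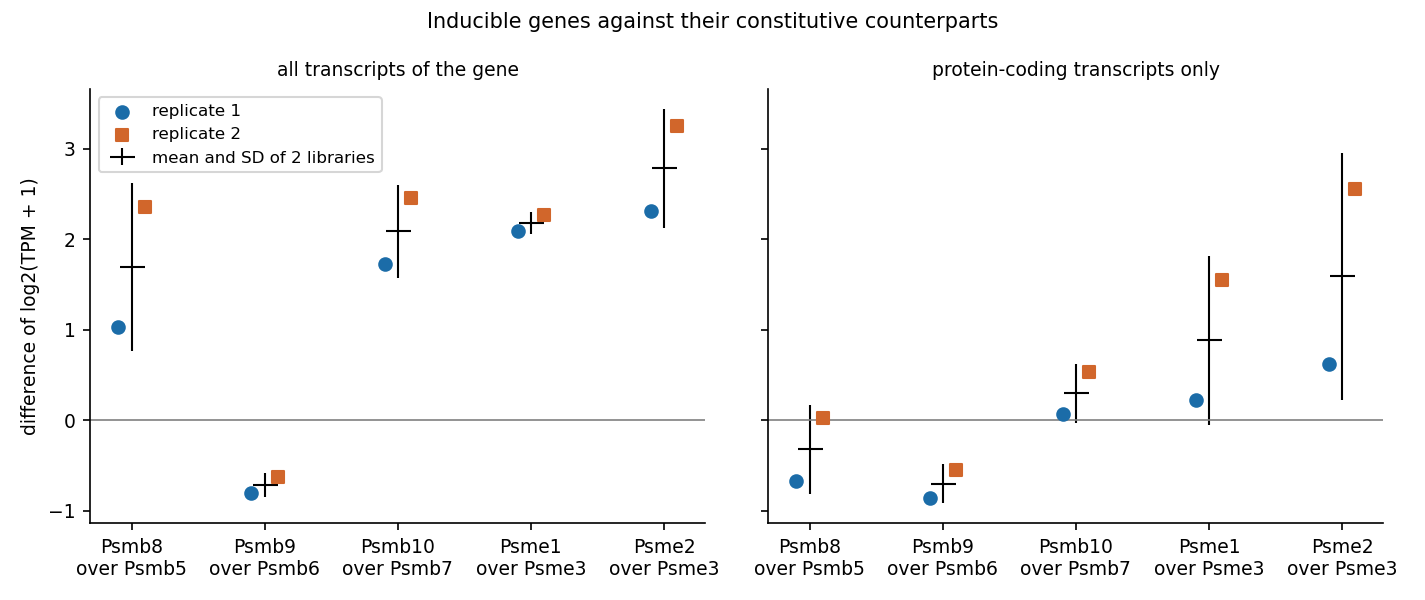
Difference of log2(TPM + 1) between each inducible gene and its counterpart in replicate 1 (blue circles) and replicate 2 (orange squares), with the mean and SD of the 2 libraries in black, from all transcripts (left) and from protein-coding transcripts (right). Psme3, set against Psme1 and Psme2, is of the same family and is not replaced by them. Psmb8 over Psmb5 has a mean of 1.69 on the left and -0.32 on the right, and Psmb9 over Psmb6 lies below 0 in both, while it is 0.48 by CPM, which is not plotted.

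The annotation marks transcripts that keep an intron, and in RNA of the nucleoplasm such transcripts held much of the signal of several members. Retained-intron transcripts took 71.4% of the TPM of Psmb8 in replicate 1 and 81.2% in replicate 2. This was the highest mean share of any member (76.3 ± 6.95%; SD, n = 2) by this TPM, though not by kallisto-layout TPM. Most of it was Psmb8-205, a transcript of 1234 bases with 17.3 and 40.0 TPM, against 8.67 and 10.6 TPM for the protein-coding Psmb8-203. Psmb8-205 keeps intron 3 of the 6 introns of Psmb8-203, which is 190 bases long (chr17:34199381-34199570, GRCm38, plus strand). It is shown because its TPM exceeds that of the coding transcript in both libraries. The intron is in capitals, with 20 coding bases on either side in lower case (chr17:34199361-34199590), taken from the GENCODE M21 transcript.
Psmb8 intron 3: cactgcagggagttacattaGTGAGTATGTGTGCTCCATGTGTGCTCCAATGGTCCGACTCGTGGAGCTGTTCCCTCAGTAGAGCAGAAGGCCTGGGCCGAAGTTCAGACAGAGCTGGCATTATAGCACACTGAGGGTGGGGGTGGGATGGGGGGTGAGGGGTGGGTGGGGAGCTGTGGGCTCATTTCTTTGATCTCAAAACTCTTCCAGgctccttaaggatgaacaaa
The intron begins with gt and ends with ag, the usual ends of a spliced intron. The tables assign reads to whole transcripts and do not give the reads that lie on this intron.

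By the same TPM the other inducible genes had smaller or less even shares. Psmb9 had 43.3% and 43.6% of its TPM in retained-intron transcripts, led by Psmb9-201, which keeps introns 1 and 3 of the 5 introns of Psmb9-204 and had 8.37 and 12.8 TPM. Psmb10 had 24.1% and 15.1%. Its largest transcript was Psmb10-203, a noncoding transcript of 426 bases with 30.3 and 69.6 TPM, against 8.49 and 22.3 TPM for the protein-coding Psmb10-201. Psme2 had 71.4% and 41.9%, of which Psme2-203, of only 185 bases, made 30.7 and 13.3 TPM from 6.93 and 7.38 counts. In the kallisto-layout table the median share of the 5 was 50.01% and 48.9%. There Psme2 had 92.4% and 87.4%, above Psmb8 with 76.8% and 78.6%.

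Psme1 had 17.4% and 40.5% of its TPM in retained-intron transcripts. Its assignment differed most between the libraries: Psme1-209, a transcript of 439 bases annotated as a target of nonsense-mediated decay, had 267 counts and 61.4 TPM in replicate 1 and 10.2 counts and 1.84 TPM in replicate 2. The effective length given for the gene, which divides its counts, was 453 bases in replicate 1 and 821 bases in replicate 2. The protein-coding Psme1-208 had 26.9 and 39.9 TPM and was higher in replicate 2, as the counts of the whole gene were.

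Retained-intron transcripts held at least 50% of TPM in both libraries for 3 members, Psmb8, Psmd6 and Psmf1, which is 9.09% of the 33 detected members with such a transcript. The same held for 12.0% of the 6848 detected protein-coding genes that have one. Psmd6, a lid subunit, had 53.0% and 59.9%, and Psmf1 had 78.0% and 50.2%. Psma3 had 37.99% and 65.1%. The median share was 43.3% and 41.9% over the 5 inducible genes, 26.8% and 21.4% over 28 others, and 24.9% and 26.01% over all such protein-coding genes. The 5 also have more such transcripts annotated, a median of 5 against 3 for the 28 others and 2 for all, and the part of this in their share was not tested. By counts the 3 members were Psmb3, Psmb8 and Psmb9, against 10.4% of the same protein-coding genes.

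**Figure D3:**
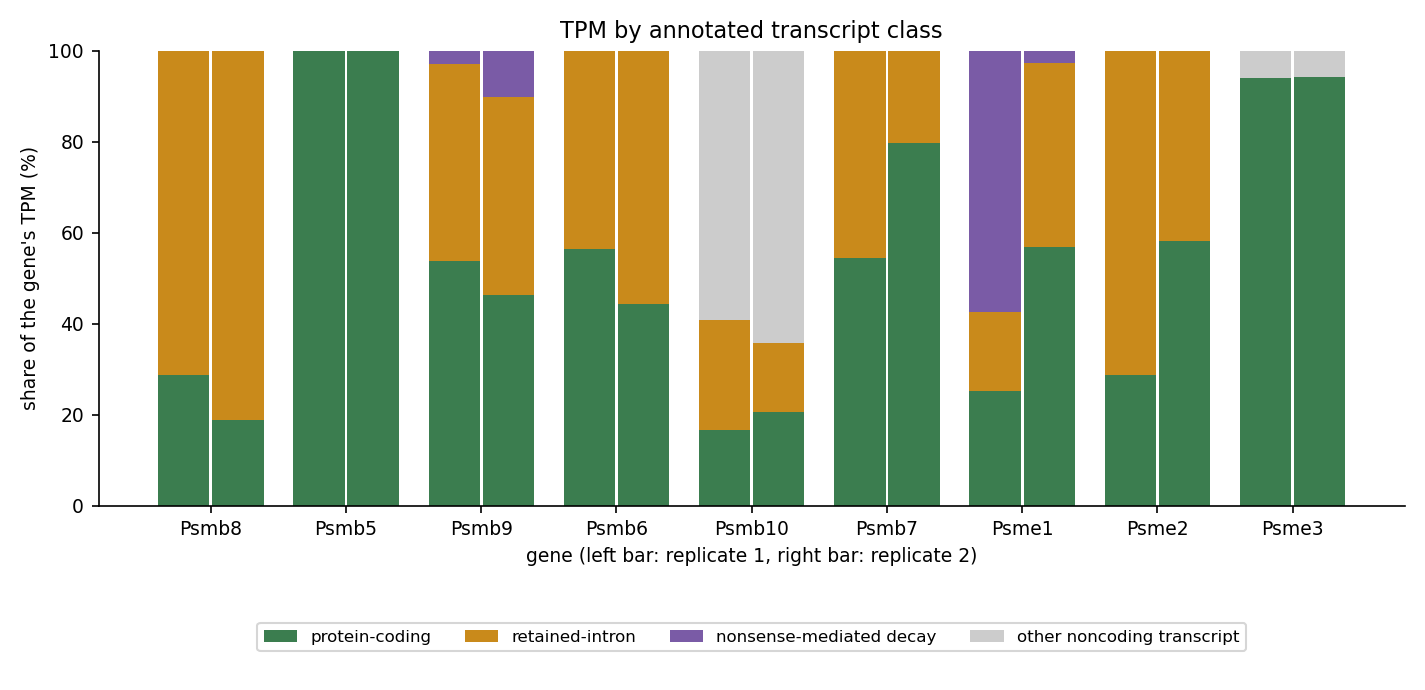
Share of each gene's TPM in percent held by protein-coding (green), retained-intron (yellow), nonsense-mediated decay (purple) and other noncoding transcripts (grey), for the 5 inducible genes and Psmb5, Psmb6, Psmb7 and Psme3, with replicate 1 on the left and replicate 2 on the right of each pair of bars. Psmb8 has 28.6% and 18.8% in protein-coding transcripts, Psmb5 100%, and the classes of Psme1 differ most between the bars.

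The members were also compared between the libraries, as CPM with TMM normalisation, replicate 2 over replicate 1. Psmb10 had 20.8 CPM in replicate 1 and 59.7 in replicate 2, a log2 ratio of 1.53 with a counting interval (95%, exact) of 1.36 to 1.69, or 2.88-fold. Psmb8 had 31.3 and 80.1 CPM, a ratio of 1.36 (1.22 to 1.49), or 2.56-fold. Psme2b, a copy of Psme2, had 21.3 and 53.6 CPM, a ratio of 1.33 (1.17 to 1.496). These 3 members were more than 2-fold higher in replicate 2 by CPM, against 4.88% of all detected genes. No member was more than 2-fold lower by CPM, against 2.95%. By kallisto-layout TPM rescaled to protein-coding genes the ratio of Psme2b was only 0.40, with 1.17 for Psmb10 and 0.96 for Psmb8. Psme2 followed with 44.6 and 87.5 CPM and a ratio of 0.97 (0.86 to 1.09). Psma7, an alpha subunit, had a ratio of 0.87.

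The 2 remaining inducible genes had smaller ratios. Psmb9 had 41.3 and 73.3 CPM, a ratio of 0.83 (0.70 to 0.95), and Psme1 had 46.1 and 66.3 CPM, a ratio of 0.52 (0.40 to 0.65). All 5 were thus higher in replicate 2 by CPM, as were 28 of the 42 others and 50.2% of all detected genes. The median log2 ratio was 0.97 over the 5, 0.15 over the 42 and 0.00 over all detected genes, whose middle 95% ran from -1.05 to 1.28. Psma7, Psmb4, Psmb6 and Psme2b exceeded the lowest of the 5. On the TPM scale the median detected gene lay at -0.28, and Psme1 was at -0.61 there against 0.52 by CPM. It was 1 of 17 members whose ratios differed in sign between the scales, and the matching share of all detected genes is not given here.

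At the other end, Psme3 had 53.5 CPM in replicate 1 and 36.9 in replicate 2, a log2 ratio of -0.54 (-0.67 to -0.40). Psme3 thus stood below the middle of the members by CPM, while the other 11S genes stood above it. By TPM Psme1, at -0.61, was also below the median ratio of the members, which was -0.19, and Psme2, at 0.16, was above it. Psma8 had -0.42, with a counting interval from -1.34 to 0.48 that holds 0. Psmd7, a lid subunit, had -0.30, Psmd10 -0.24 and Psmd11, a further lid subunit, -0.22. Counting error alone left 22 members above 0, 5 below 0 and 20 with an interval that holds 0. The matching shares of all detected genes are not given here, so these counts are not read as a trait of the members. The counting intervals do not hold the variation between cultures or preparations, and 2 libraries of 1 group give no error for a ratio between them.

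**Figure D4:**
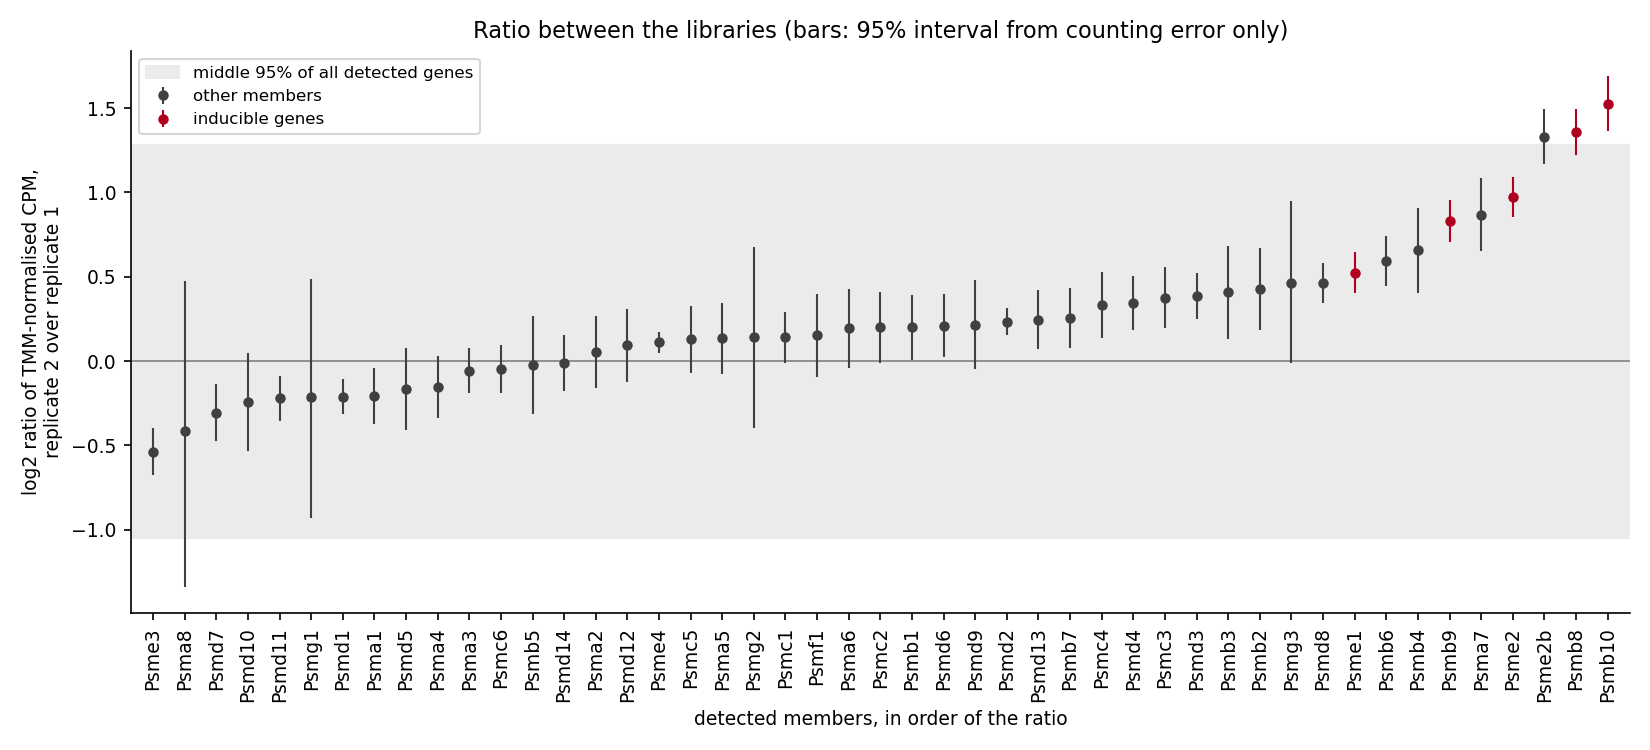
Log2 ratio of TMM-normalised CPM, replicate 2 over replicate 1, of each of the 47 detected members in order, with bars for the 95% counting interval, inducible genes in red and a grey band for the middle 95% of all detected genes (-1.05 to 1.28). Psmb10, Psmb8 and Psme2b lie above the band, and no member lies below it.

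Psme2 and Psme2b share most of their sequence, so the split of reads between them is uncertain. Psme2b is a copy without introns on chromosome 11 (chr11:48945354-48946190, GRCm38, minus strand). The coding sequences of Psme2-208 and Psme2b-201 were identical at 712 of 717 positions (99.3%), with an identical run of 311 bases, and 69.5% of the 50-base words of Psme2b were also in Psme2. A stretch of 90 bases, coding positions 454 to 543, is shown because it holds 3 of the 5 differences, in capitals, that can tell their reads apart.
Psme2: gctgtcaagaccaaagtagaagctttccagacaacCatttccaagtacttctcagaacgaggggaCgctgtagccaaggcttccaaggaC
Psme2b: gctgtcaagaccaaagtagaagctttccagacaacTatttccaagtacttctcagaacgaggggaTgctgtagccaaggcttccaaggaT
Psme2b had 444 counts and 36.3 TPM in replicate 1, and 1012 counts and 71.5 TPM in replicate 2. It lies within the span of the gene Gm12185 and overlaps 9930111J21Rik1 by 41 bases on the same strand. These neighbours had 555 and 675 counts and 3329 and 5100 counts.

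Other members lie close to or over active genes as well. The spans of 24 members overlap another annotated gene, and 11 overlap one with at least 10 counts in both libraries. The matching shares of all annotated genes are not given here, so these counts are not read as a trait of the members. Psmb9 shares 212 bases with Tap1, which had 7320 and 12357 counts, and Psmb7 shares 6571 bases with Nek6 on the opposite strand, which had 931 and 772 counts. Psme1 shares 14 bases with Emc9. Psmb8 and Psmb10 overlap the antisense genes Gm20496, with 0 and 1.37 counts, and Gm16156, with 2 and 3 counts. Since the strand setting is not given in the sources used here, reads of a gene and of an opposite neighbour cannot be told apart where they overlap.

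Genes that work with the proteasome were taken from 3 lists of 27 genes in all, of which 26 were found under their names. At least 10 TPM in both libraries was reached by 23 of them, all but Uchl5, Ubqln2 and Ubqln4, against 41.5% of all detected protein-coding genes, and none of the 26 was below 1 TPM in both. In antigen processing, where the peptides go next, all 6 genes were at or above 10 TPM. B2m, the light chain of MHC class I, had 999 and 769 TPM. Tapbp, the loading factor tapasin, had 517 and 641 TPM. Nlrc5, a transcriptional activator of MHC class I genes, had 167 and 182 TPM.

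Of these 6 genes, 4 were higher in replicate 2 by CPM, with log2 ratios of 0.90 for Tap1, 1.03 for Tap2, 0.53 for Tapbp and 0.80 for Nlrc5, where 50.2% of all detected genes had a ratio above 0. B2m and Erap1, an aminopeptidase that trims peptides, had -0.03 and -0.20. Tap1 lies 495 bases from Psmb8 and Tap2 lies 2072 bases from it on its other side, so Psmb9, Tap1, Psmb8 and Tap2 stand next to each other on chromosome 17 with ratios of 0.83, 0.90, 1.36 and 1.03. Among 14 genes of assembly, cap and ubiquitin handling, 11 reached 10 TPM, and the median log2 ratio was -0.05. The polyubiquitin gene Ubb had 72.8 and 112 TPM, and Vcp, an unfolding ATPase, had 101 and 77.6 TPM.

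All 6 transcription factor genes known to act on proteasome genes reached 10 TPM. Irf1, an interferon regulatory factor that acts on Psmb9, had 207 and 344 TPM and a log2 CPM ratio of 0.90. By CPM it was higher in replicate 2, as were the 5 inducible genes and 50.2% of all detected genes. A link between Irf1 and the ratios of the 5 was not tested. Nfe2l2, the gene of NRF2, had 230 and 138 TPM and a ratio of -0.43, and Nfe2l1, the gene of NRF1, which acts on core and cap genes, had a ratio of 0.16. Irf8 had 0.62, and Ddi2, the protease that activates NRF1, had -0.18. All of these ratios compare the same 2 libraries.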

How the data were processed

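Total RNA of 2 libraries was analysed from 3 deposited tables per library. The deposited gene and transcript tables hold expected counts, TPM, a percent of the gene's TPM per transcript and a TPM interval bound (treated as a score), per the file headers; their layout is that of RSEM. The third holds estimated counts and TPM per transcript in the layout of kallisto. Per the deposited file notes, the RSEM-layout tables derive from read alignments, the kallisto-layout table derives from the reads themselves, and all use mm10 with GENCODE M21. Which programs were run, and whether strand was used, is not given in the sources used here. Names, biotypes and coordinates came from GENCODE M21, and phiX174 and unnamed entries (0.282% and 0.0640% of counts) were left out of gene sets. Expected counts were rounded to whole numbers for TMM factors and dispersion (edgeR 4.0.16, R 4.3.3, intercept only, 14498 genes kept). Levels used log2(TPM + 1). Counting intervals of ratios were exact (scipy 1.17.1). Ratios were tested on simulated data. With 1 group of 2 libraries no p-value was computed. Any member could be named; values were given for the 5 inducible genes, their counterparts, the highest and lowest of each role group, the 5 largest and smallest ratios, the 5 highest retained-intron shares and the 3 highest partners per list, of which 2 are not reported here. Alternatives were posterior mean TPM, the kallisto-layout table with and without rescaling to protein-coding genes, CPM, DESeq2 1.42.0 size factors, a pseudocount of 0.1, other count filters and comparison sets, protein-coding transcripts only, and each replicate left out. The members and lists were chosen with earlier results of these data known.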

Additional observations from a re-analysis of the deposited data

How the results depend on the processing

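Of 212 alternative values, 4 changed sign. A further 15 values of the main results and 57 of the other results were marked as moved from the main value without a change of sign. By CPM, which is not divided by length, Psmb9 over Psmb6 became 0.48, Psmb10 over Psmb7 0.41, Psme1 over Psme3 0.31 and Psme2 over Psme3 0.48, and core minus cap became -0.58. These are means of both libraries, and in replicate 1 Psmb10, Psme1 and Psme2 were each below their counterpart by CPM. With protein-coding transcripts only, chosen after seeing the data, Psmb8 over Psmb5 became -0.32, Psmb10 over Psmb7 0.30, Psme1 over Psme3 0.88, Psme2 over Psme3 1.59 and the inducible genes against the others 0.44. The kallisto-layout table gave 1.54 for Psme1 over Psme3 (1.69 rescaled), 13 partners at or above 10 TPM and 7 members past the retained-intron share (21.2% of 33, against 17.8% of protein-coding genes). Leaving out 1 replicate gave 4 to 5 such members. The ratio between replicates put Psmb10 alone more than 2-fold higher, both by deposited TPM and by rescaled kallisto-layout TPM. By rescaled kallisto-layout TPM Psma8, with 28 and 19 counts, was more than 2-fold lower, at -1.01. Psme1 became -0.61 by deposited TPM and -0.19 by rescaled kallisto-layout TPM. Apart from the division by length, causes were not tested. No paired analysis was possible because the 2 libraries form 1 group. Depth limits Psma8, Psmg1 and Psmg2, whose counting intervals span over 1 log2 unit.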
